A study of Mus musculus with 8 samples.

Results

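Mitochondrial carriers of the solute carrier family 25 (Slc25) move metabolites across the inner membrane of mitochondria, and a few sit in other membranes. The group described here held the 45 genes, of 22180 genes with a probe set of their own, whose single gene symbol on the array platform starts with Slc25a, except 1 carrier that is not reported here. Each of the 45 had 1 probe set, so no choice between probe sets was needed. Expression was measured in liver of male mice labelled as strain C57BL/6J, with 4 arrays of wild type littermates and 4 of mice whose own Tm6sf2 gene was changed to encode the E167K protein variant (knock-in). Tm6sf2 is an endoplasmic reticulum membrane protein that helps to load lipid onto very low density lipoprotein, and the study asked how the variant acts on glucose and lipid metabolism. The labels disagree on the diet: the series text names high-fat feeding over 20 weeks, while the note on each array gives a fat-free diet rich in sucrose or a chow diet, either for 14 weeks. No result here is tied to a diet, and neither the ages of the mice nor the number of founder lines is given in the sources used here.

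Slc25 carriers share a fold of repeated membrane-spanning segments that opens to one side of the membrane at a time, and most work by exchanging one substrate for another. In liver they link the cytosol with the mitochondrial matrix for ATP supply, citrate export for fat synthesis, the malate-aspartate shuttle, the urea cycle, and the entry of cofactors such as coenzyme A, NAD and iron. Most are made without a cleaved targeting sequence and reach the inner membrane through the TIM22 import path.

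Values are log2 expression values normalized across arrays by the authors, and a carrier was called present on an array when it lay above the dim limit, the 40th percentile of that array over probe sets with 1 gene symbol. This limit lay between 3.46 and 3.50. The brightness of a probe set also depends on its probes, so values of different carriers are given side by side and are not ranked. The Tm6sf2 transcript read 9.43 to 9.92 across wild type livers and 9.27 to 9.90 across knock-in livers, and since the variant is a coding change, this level does not check the genotype labels. The 8 hepatocyte markers were above the limit on all 8 arrays, and their summed level, as log2 of the sum, spanned 15.82 to 15.86 across wild type livers and 15.84 to 15.87 across knock-in livers. Of 5 listed markers of exocrine pancreas, 3 were measured, and they stood out on knock-in replicate 3, with Ctrb1 at 12.32, Cel at 10.97 and Cpa1 at 10.44, and less so on knock-in replicate 4, at 7.04, 4.43 and 4.78. In wild type arrays the same genes lay at 3.33 to 4.84, 2.47 to 3.21 and 3.05 to 3.29. Without those 2 arrays the difference moved by over 1.5 times or turned sign in 27 of the 42 tested carriers, 12 of them among the 24 with a difference of at least 0.1 in size, and 5 turned sign. Values without them are given beside the carriers described one by one where they moved that far, and beyond that the part of pancreatic RNA in the results was not tested.

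Most of the family lay above the dim limit. The limit is a rank within each array and does not by itself show that a gene is expressed. Tnnt3, a skeletal muscle marker, also lay above it on all 8 arrays. Of the 45 carriers, 40 lay above the dim limit on all 8 arrays, 2 on some arrays and 3 on none. The 3 below it throughout were Slc25a31, an ADP/ATP carrier known from testis, at 2.48 to 3.03, Slc25a41, an ATP-Mg/phosphate carrier, at 2.36 to 3.03, and Slc25a54, at 1.53 to 2.15. Slc25a2, an ornithine carrier, was above it on 6 arrays and Slc25a43 on 4. The 42 carriers above it on at least 4 arrays were tested, and the other 3 enter no count of differences. Of all 22180 genes, 13449 met that rule. With the 60th percentile as a stricter limit, 34 carriers and 9203 of all genes met it. In whole liver, fewer cells of a type and less RNA per cell cannot be told apart.

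**Figure D1:**
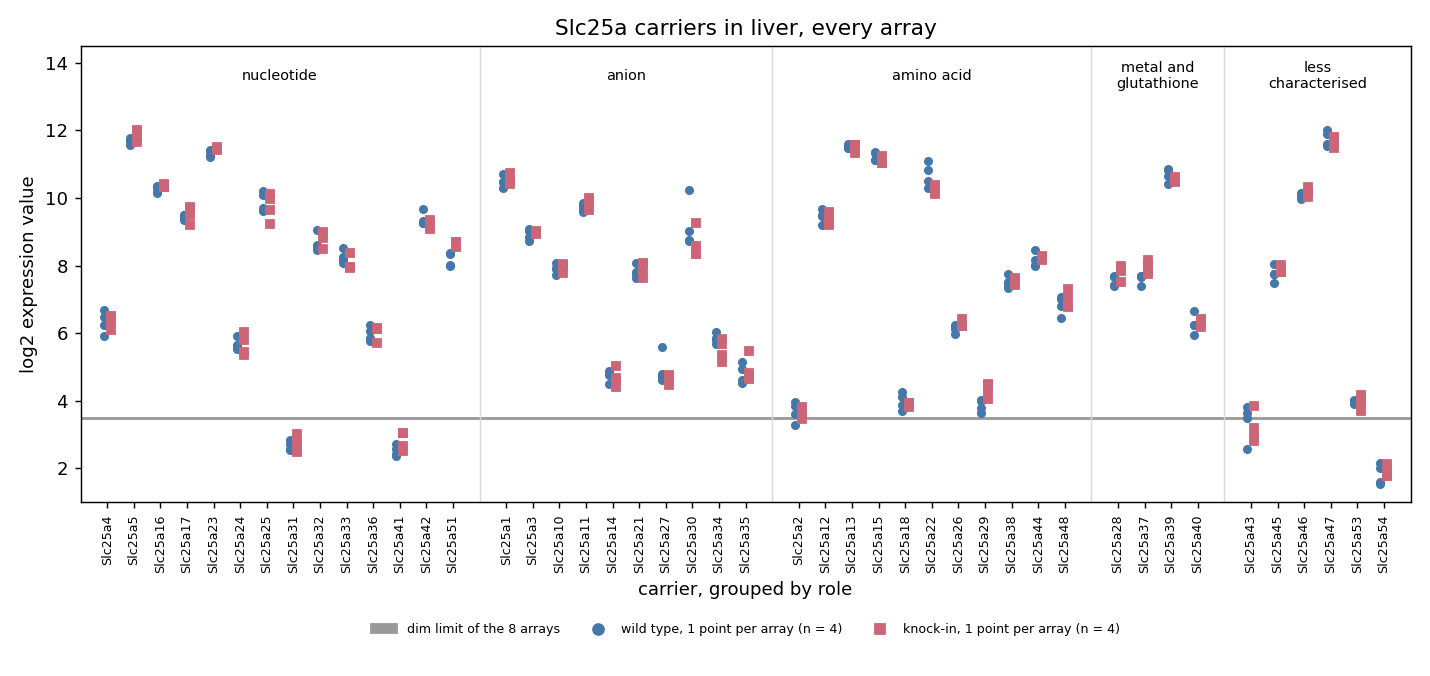
Log2 expression value (vertical axis) of the 45 Slc25a carriers (horizontal axis, grouped by role), with 1 point for each of the 4 wild type arrays (circles) and 4 knock-in arrays (squares); the grey band is the range of the dim limit, 3.46 to 3.50. Slc25a31, Slc25a41 and Slc25a54 lie below the band on all 8 arrays, and heights of different carriers are not comparable.

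Among the carriers of nucleotides, the bulk exchanger of ADP and ATP was represented by Slc25a5 at 11.58 to 12.01 and Slc25a4, the form known from heart and muscle, at 5.92 to 6.68. The calcium-regulated ATP-Mg/phosphate carriers lay at 11.22 to 11.50 for Slc25a23, 9.23 to 10.21 for Slc25a25 and 5.35 to 6.03 for Slc25a24. Slc25a42, a coenzyme A carrier, lay at 9.10 to 9.67, Slc25a16, also linked to coenzyme A, at 10.15 to 10.41, and Slc25a17, a cofactor carrier of the peroxisome, at 9.21 to 9.74. The pyrimidine nucleotide carriers Slc25a33 and Slc25a36 lay at 7.94 to 8.53 and 5.72 to 6.25, and Slc25a32, a folate and flavin carrier, at 8.46 to 9.04. All of these were above the limit on all 8 arrays.

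Among carriers of organic anions, Slc25a1, which exports citrate for fatty acid and sterol synthesis, lay at 10.31 to 10.75. The dicarboxylate carrier Slc25a10 lay at 7.72 to 8.07, the oxoglutarate carrier Slc25a11 of the malate-aspartate shuttle at 9.58 to 10.01, and the phosphate carrier Slc25a3 at 8.73 to 9.10. The relatives of uncoupling proteins Slc25a14 and Slc25a27 lay at 4.41 to 5.04 and 4.47 to 5.58, closer to the dim limit but above it on all 8 arrays. The oxodicarboxylate carrier Slc25a21 lay at 7.63 to 8.08 and the orphan carrier Slc25a35 at 4.51 to 5.48.

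Among amino acid carriers, Slc25a13 (citrin), the aspartate/glutamate carrier of liver, lay at 11.34 to 11.61, and its counterpart of muscle and brain, Slc25a12 (aralar), at 9.19 to 9.66. The ornithine carrier of the urea cycle, Slc25a15, lay at 11.03 to 11.36. The glutamate carrier Slc25a22 lay at 10.12 to 11.10 and the second glutamate carrier, Slc25a18, at 3.69 to 4.26, within 1 log2 unit of the dim limit. Slc25a38, a glycine carrier needed for heme synthesis, lay at 7.35 to 7.74, Slc25a44, which carries branched-chain amino acids, at 7.98 to 8.46, Slc25a26 at 5.97 to 6.42 and Slc25a48 at 6.46 to 7.32.

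The glutathione carriers Slc25a39 and Slc25a40 lay at 10.41 to 10.85 and 5.95 to 6.64. Slc25a47, described as a liver-specific carrier and placed with the less characterised ones, lay at 11.47 to 12.02. Among the others of that set, Slc25a46 lay at 9.97 to 10.34, Slc25a45 at 7.49 to 8.03, Slc25a53 at 3.701 to 4.18 and Slc25a43 at 2.58 to 3.84, the last on both sides of the dim limit.

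Knock-in and wild type were then compared carrier by carrier, as the knock-in mean less the wild type mean on the log2 scale, with its standard error (SE) from a limma fit over all 13449 tested genes. Of the 42 tested carriers, 0 passed an adjusted p of 0.05 (limma, Benjamini-Hochberg over all tested genes), where 0.0669% of all tested genes passed. The lowest adjusted p was 0.202. An unadjusted p under 0.05 was found for 4 carriers, 3 higher and 1 lower in the knock-in, which is 9.52% of the carriers beside 11.3% of all tested genes (6.01% higher and 5.29% lower). By that count the family lay near the background, and the differences below did not pass the test. Without knock-in replicates 3 and 4 the count was also 4, but of other membership: Slc25a51 and Slc25a37 were in both, Slc25a29 and Slc25a22 were not (unadjusted limma p of 0.0534 and 0.0535), and Slc25a28 and Slc25a5 joined (unadjusted limma p of 0.0186 and 0.0277). All 4 were higher, and 0 passed the adjusted threshold.

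Most differences were small. In 34 of 42 carriers the difference was under 0.2 in size, 81.0% beside 72.2% of all tested genes. Fewer were under 0.2 without knock-in replicates 3 and 4. Among those that rose above it, Slc25a5 was then at 0.30, Slc25a24 at -0.28, Slc25a14 at -0.25 and Slc25a11 at 0.25, and no carrier went the other way. The share of all tested genes was not computed without those arrays. The median over the carriers was 0.05 beside 0.0046 over all tested genes, with 24 carriers higher and 18 lower, and 51.1% of all tested genes higher. This median fell on leaving out any single array except knock-in replicate 1 (0.051). It was 0.036, 0.014, 0.017 and 0.042 without wild type replicates 1, 2, 3 and 4 in turn. Without knock-in replicates 2, 3 and 4 in turn it was 0.031, 0.016 and 0.029. With knock-in replicates 3 and 4 both left out it was 0.0093. For 32 carriers the 95% interval lay within a 1.5-fold difference in either direction, 76.2% beside 73.8% of all tested genes. The median spread within groups was 0.18 (SD, log2) for the carriers and 0.19 for all tested genes.

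**Figure D2:**
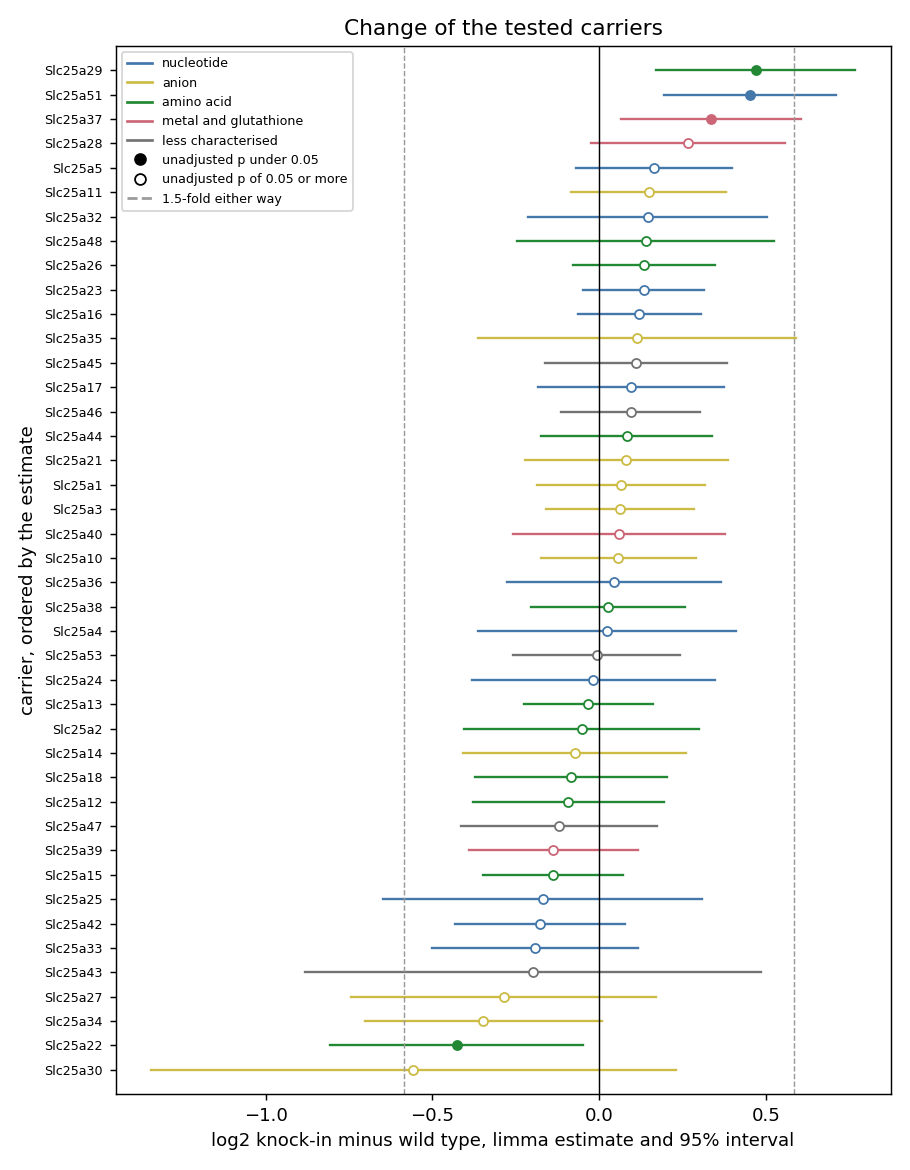
Difference of each of the 42 tested carriers (vertical axis, ordered by estimate) as log2 knock-in minus wild type (horizontal axis), with the limma estimate as a point, its 95% interval as a line and colours for roles. Filled points are the 4 carriers with an unadjusted p under 0.05, and dashed lines mark a 1.5-fold difference either way; 32 intervals lie between the dashed lines.

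The 4 knock-in arrays did not overlap the 4 wild type arrays in 4 carriers, all higher in the knock-in, where 7.16% of all tested genes did not overlap in either direction (3.96% higher and 3.2% lower). The carrier with the smallest p was Slc25a51, the mitochondrial NAD carrier (probe set 17424945). Wild type arrays read 8.02, 8.38, 8.0 and 8.35 in the order of replicates 1 to 4, and knock-in arrays read 8.60, 8.71, 8.54 and 8.71. Every knock-in array was thus above every wild type array, and the knock-in arrays lay closer together. The difference was 0.45 (SE 0.11, 95% interval 0.20 to 0.71, n = 4 each, limma adjusted p = 0.202). It was 0.47 without the 2 knock-in arrays with pancreatic markers. Groups that lie fully apart fix the unadjusted p of an exact two-sided permutation test at 0.0286, the smallest that 4 against 4 arrays allow. For these 4 carriers, chosen because their groups lay apart, that p therefore adds nothing.

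Slc25a29, a carrier of basic amino acids (probe set 17283923), had wild type values of 3.63, 3.98, 3.79 and 4.03 and knock-in values of 4.47, 4.04, 4.30 and 4.48. All 8 lay close to the dim limit but above it, and the groups were parted by a narrow gap between wild type replicate 4 and knock-in replicate 2. The difference was 0.47 (SE 0.13, n = 4 each, limma adjusted p = 0.251), with 0.40 and an unadjusted limma p of 0.0534 without knock-in replicates 3 and 4.

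Slc25a37 (mitoferrin-1), which brings iron into mitochondria and is best known from red cell precursors, was at 7.69, 7.40, 7.65 and 7.69 in wild type and at 8.03, 7.83, 7.74 and 8.17 in knock-in arrays (probe set 17308132). The wild type arrays clustered near their upper end except replicate 2, and the lowest knock-in array lay just above the highest wild type array. The difference was 0.34 (SE 0.12, n = 4 each, limma adjusted p = 0.34), and 0.32 without knock-in replicates 3 and 4. Its relative Slc25a28 (mitoferrin-2), the form of most tissues, lay at 7.67, 7.40, 7.69 and 7.41 in wild type and 7.90, 8.0, 7.50 and 7.84 in knock-in arrays, with overlap through knock-in replicate 3 alone and a difference of 0.27 (SE 0.13, limma adjusted p = 0.475). That difference was 0.37 without knock-in replicate 3 and 0.41 without knock-in replicates 3 and 4. Of 6 listed markers of red cells, Slc4a1 alone had a probe set of its own, with 3.73 to 4.67 across wild type livers and 3.85 to 4.88 across knock-in livers, and the part of blood in the value of Slc25a37 was not tested.

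Slc25a23, an ATP-Mg/phosphate carrier, was the fourth carrier whose groups lay apart, with 11.41, 11.27, 11.39 and 11.22 in wild type and 11.50, 11.44, 11.46 and 11.42 in knock-in arrays (probe set 17346461). The gap between the groups was small, and the limma fit, which moves small spreads toward the common one, gave a difference of 0.13 with SE 0.08 and an unadjusted p of 0.128 (adjusted p = 0.574). Without knock-in replicates 3 and 4 the difference was 0.15.

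On the lower side, Slc25a22, which carries glutamate into mitochondria, read 10.49, 10.29, 11.10 and 10.82 in wild type and 10.12, 10.20, 10.30 and 10.38 in knock-in arrays (probe set 17497904). Wild type replicates 1, 3 and 4 were above all knock-in arrays, while wild type replicate 2 lay among them, so the groups overlapped. The difference was -0.43 (SE 0.17, n = 4 each, limma adjusted p = 0.374, exact permutation p = 0.0857). Without wild type replicate 3 it was -0.29, with an unadjusted limma p of 0.0722, and without knock-in replicates 3 and 4 it was -0.52, with 0.0535.

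The largest difference in size, and the widest spread, belonged to Slc25a30, a carrier first described in kidney, at 8.71, 9.02, 10.24 and 8.76 in wild type and 8.33, 8.59, 8.33 and 9.25 in knock-in arrays. Wild type replicate 3 was the highest array and knock-in replicate 4 the next, and the remaining arrays of each group lay within 0.5 log2 units of each other. The difference of -0.56 (SE 0.35, limma adjusted p = 0.598) became -0.21 without wild type replicate 3 and -0.76 without knock-in replicate 4. Slc25a34, an orphan carrier, was at 5.69, 5.86, 6.04 and 5.80 in wild type and 5.69, 5.36, 5.13 and 5.83 in knock-in arrays, a difference of -0.35 (SE 0.16, limma adjusted p = 0.45) with overlap. It was -0.22 without knock-in replicate 3 and -0.46 without knock-in replicate 4.

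**Figure D3:**
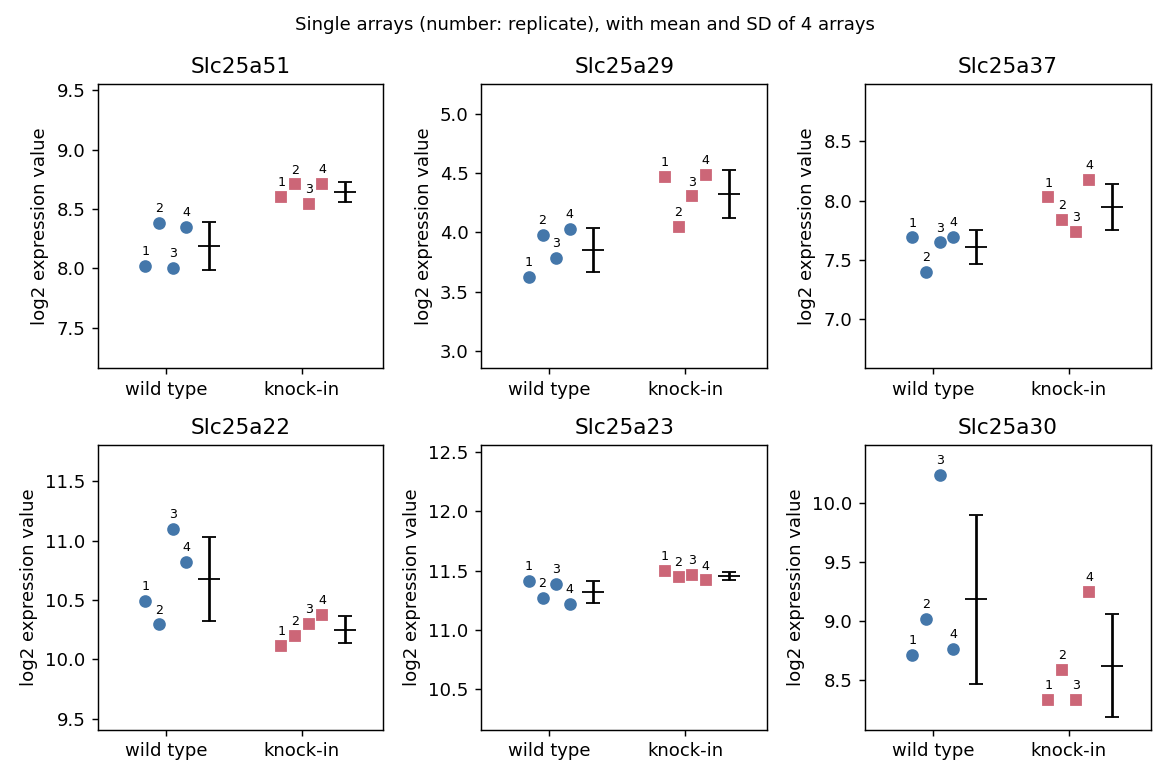
Log2 expression value (vertical axis, the same span in each panel) on each of the 4 wild type arrays (circles) and 4 knock-in arrays (squares) for 6 carriers; numbers give the replicate and bars the mean and SD of 4 arrays. In Slc25a51, Slc25a29, Slc25a37 and Slc25a23 the groups lie apart, while in Slc25a22 and Slc25a30 they overlap.

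The counts by role stand beside all tested genes, of which 51.1% were higher and 11.3% had an unadjusted limma p under 0.05. With 4 to 12 tested members per role, the shares are coarse. Carriers of nucleotides had 8 of 12 tested members higher and 4 lower, with 1 (8.33%) at an unadjusted limma p under 0.05 (Slc25a51) and a median of 0.07 (0.016 without knock-in replicate 4). Slc25a5, the main ADP/ATP carrier outside muscle, read 11.70, 11.58, 11.71 and 11.78 in wild type and 11.97, 12.01, 11.79 and 11.65 in knock-in arrays, where knock-in replicate 4 lay among the wild type arrays (0.16, SE 0.10, limma adjusted p = 0.602). The difference of Slc25a5 was 0.30 without knock-in replicates 3 and 4. Slc25a25 read 9.70, 10.21, 10.10 and 9.63 in wild type and 9.96, 10.13, 9.64 and 9.23 in knock-in arrays, a broad overlap with a difference of -0.17 (SE 0.21) that was 0.14 without knock-in replicates 3 and 4. Slc25a4, with 0.02 (95% interval -0.36 to 0.41), ranged over -0.11 to 0.14 on leaving out single arrays and was -0.12 without knock-in replicates 3 and 4. Slc25a16, Slc25a17, Slc25a24, Slc25a32, Slc25a33 and Slc25a36 lay between -0.19 and 0.15. Without knock-in replicates 3 and 4 they lay between -0.29 (Slc25a33) and 0.24 (Slc25a32), and Slc25a24 went from -0.018 to -0.28.

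Slc25a42 is of interest for its place, since in assembly GRCm38.p6 it lies on chromosome 8 with 10 annotated genes, 8 of them protein-coding, between it and Tm6sf2. Its wild type arrays read 9.25, 9.27, 9.67 and 9.33 and its knock-in arrays 9.18, 9.19, 9.10 and 9.35 (probe set 17509976). The groups overlapped, with wild type replicate 3 as the highest array. The difference of -0.18 (SE 0.11, 95% interval -0.43 to 0.08, limma adjusted p = 0.607) was -0.081 without that array. The other carriers of chromosome 8, Slc25a4 and Slc25a15, lie 288 and 665 annotated genes away from Tm6sf2.

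Anion carriers had 6 of 10 tested members higher and 4 lower, 0 of them at an unadjusted limma p under 0.05, with a median of 0.06 (-0.014 without knock-in replicates 3 and 4). The citrate carrier Slc25a1 read 10.46, 10.31, 10.71 and 10.47 in wild type and 10.54, 10.75, 10.49 and 10.43 in knock-in arrays. These values overlapped throughout, and the difference of 0.07 had a 95% interval of -0.19 to 0.32 (0.16 without knock-in replicates 3 and 4). The dicarboxylate carrier Slc25a10 read 7.93, 7.72, 8.07 and 7.89 in wild type and 8.05, 7.98, 8.02 and 7.78 in knock-in arrays, which also overlapped (0.06, 95% interval -0.18 to 0.29, and 0.12 without knock-in replicates 3 and 4). Slc25a11 had a difference of 0.15 (SE 0.10, limma adjusted p = 0.639), which was 0.25 without knock-in replicates 3 and 4. Slc25a3, Slc25a21, Slc25a35, Slc25a14 and Slc25a27 lay between -0.29 and 0.11. Without knock-in replicates 3 and 4 they lay between -0.25 and 0.12, and Slc25a14 went from -0.07 to -0.25.

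Amino acid carriers had 5 of 11 tested members higher and 6 lower, with a median of -0.03 (0.0024 without knock-in replicates 3 and 4). Slc25a29 was higher and Slc25a22 lower at an unadjusted limma p under 0.05, 18.2% of this role beside 11.3% of all tested genes. This list also holds Slc25a48, since described as a choline carrier, and Slc25a26, which carries S-adenosylmethionine. Citrin, Slc25a13, had one of the smaller spreads, with 11.48, 11.48, 11.52 and 11.61 in wild type and 11.49, 11.56, 11.58 and 11.34 in knock-in arrays. The difference was -0.03 (95% interval -0.23 to 0.16, and 0.0024 without knock-in replicates 3 and 4), and its groups overlapped. The ornithine carrier Slc25a15 read 11.13, 11.36, 11.33 and 11.14 in wild type and 11.03, 11.04, 11.11 and 11.23 in knock-in arrays, with 3 of 4 knock-in arrays below all wild type arrays and a difference of -0.14 (SE 0.09, limma adjusted p = 0.626). Slc25a12, Slc25a18, Slc25a2, Slc25a26, Slc25a38, Slc25a44 and Slc25a48 lay between -0.09 and 0.14. Without knock-in replicates 3 and 4 they lay between -0.07 (Slc25a12) and 0.21 (Slc25a48).

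Of the 4 carriers of iron and glutathione, 3 were higher and 1 lower, with Slc25a37 alone at an unadjusted limma p under 0.05 (25% beside 11.3% of all tested genes). The glutathione carrier Slc25a39 had a difference of -0.14 (SE 0.11, limma adjusted p = 0.703), which came to -0.23 when wild type replicate 2 was left out and to -0.083 when wild type replicate 4 was. Its relative Slc25a40 had a difference of 0.06 (SE 0.14, and 0.010 without knock-in replicates 3 and 4). The less characterised carriers had 2 of 5 tested members higher and 3 lower, 0 at an unadjusted limma p under 0.05. Slc25a47 read 11.60, 11.54, 11.88 and 12.02 in wild type and 11.70, 11.80, 11.47 and 11.60 in knock-in arrays, an overlap with a difference of -0.12 (95% interval -0.41 to 0.17) that was -0.0082 without knock-in replicates 3 and 4. Slc25a46, a protein of the outer membrane that acts in mitochondrial dynamics, was at 0.09 (SE 0.09, and 0.17 without those 2 arrays), Slc25a45 at 0.11 (SE 0.12, 0.045 without them), Slc25a53 at -0.0076 (SE 0.11, -0.098 without them) and Slc25a43 at -0.20 (SE 0.30, and -0.0035 without them).

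Spread within groups differed among carriers. The SD pooled over both groups was 0.07 for Slc25a23, 0.08 for Slc25a16 and 0.09 for Slc25a13, and 0.59 for Slc25a30, 0.51 for Slc25a43 (near the dim limit) and 0.35 for Slc25a25. Knock-in replicate 4, with pancreatic markers above the other arrays but below replicate 3, was the highest of its group in 16 and the lowest in 15 of the 42 carriers. It was the highest of its group in 27.0% of all tested genes, beside 38.1% of the carriers. Wild type replicate 2 was also the lowest of its group in 15 carriers. Knock-in replicate 3, the array with the brightest pancreatic markers, was the highest in 7 and the lowest in 8 carriers. It was the highest in 16.7% of the carriers beside 21.2% of all tested genes. How often an array was the lowest over all tested genes was not computed.

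Some carriers are neighbours on a chromosome. Slc25a41 and Slc25a23 on chromosome 17 have 0 annotated genes between them, and Slc25a54 and Slc25a24 on chromosome 3 have 1. Slc25a41 and Slc25a54 lay below the dim limit on all arrays and were not tested, so those pairs cannot be compared by their differences. Slc25a29 and Slc25a47 lie on chromosome 12 with 1 annotated gene between them in GRCm38.p6 and are read in opposite directions. Their differences were 0.47 and -0.12, and 0.40 and -0.0082 without knock-in replicates 3 and 4. Slc25a43 and Slc25a5 are likewise parted by 1 gene on chromosome X, with -0.20 and 0.16, and -0.0035 and 0.30 without those arrays. RefSeq promoter windows of GRCm38.p6, 250 bases before to 50 after a listed start, were matched by symbol for 35 of the 45 carriers, 45 windows in all, since some carriers have several. They are shown for the chromosome 12 pair, as neighbours, and for Slc25a13, as a liver carrier with an E-box. Capitals mark CCAAT boxes (CCAAT), GC boxes (GGGCGG) and E-boxes (CACGTG) on either strand.
Slc25a29, chr12:108835827-108836126, minus strand: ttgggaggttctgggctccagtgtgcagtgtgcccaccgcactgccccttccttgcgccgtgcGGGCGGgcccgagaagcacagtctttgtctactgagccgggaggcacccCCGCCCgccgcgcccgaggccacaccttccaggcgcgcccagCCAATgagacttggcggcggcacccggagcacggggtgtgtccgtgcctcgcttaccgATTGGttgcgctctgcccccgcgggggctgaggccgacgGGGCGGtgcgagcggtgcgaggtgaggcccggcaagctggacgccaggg
Slc25a47, chr12:108850879-108851178, plus strand: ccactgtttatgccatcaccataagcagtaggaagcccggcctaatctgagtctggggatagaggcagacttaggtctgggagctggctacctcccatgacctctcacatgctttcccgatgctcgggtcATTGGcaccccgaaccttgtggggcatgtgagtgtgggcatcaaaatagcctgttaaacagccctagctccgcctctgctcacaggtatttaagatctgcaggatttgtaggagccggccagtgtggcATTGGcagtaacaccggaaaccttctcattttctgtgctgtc
Slc25a13, chr6:6217124-6217423, minus strand: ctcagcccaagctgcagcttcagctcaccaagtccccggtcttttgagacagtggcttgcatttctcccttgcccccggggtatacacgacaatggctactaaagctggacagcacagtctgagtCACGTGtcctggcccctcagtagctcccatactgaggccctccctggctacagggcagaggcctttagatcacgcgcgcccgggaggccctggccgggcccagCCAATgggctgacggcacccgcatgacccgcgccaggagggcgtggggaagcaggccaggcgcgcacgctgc

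The Slc25a29 window held 3 GC boxes and 2 CCAAT boxes at a GC content of 72.3%, and the Slc25a47 window 0 GC boxes and 2 CCAAT boxes at 53.3%. The Slc25a13 window held 1 E-box and 1 CCAAT box at 65.0%. Over the 45 carrier windows, GC boxes were found in 37 (82.2%, beside 46.2% of 21263 windows of protein-coding genes), CCAAT boxes in 22 (48.9% beside 38.2%) and E-boxes in 8 (17.8% beside 7.84%). The E-box windows belonged to Slc25a1, Slc25a13, Slc25a14, Slc25a15, Slc25a31, Slc25a33 and Slc25a36. The core motif (GCGC, any base, then TGCGC) bound by nuclear respiratory factor 1, a regulator of many mitochondrial genes, was in 2 carrier windows (4.44% beside 6.38%), the cyclic AMP element TGACGTCA in 2 (4.44% beside 2.23%) and the sequence AAGGTCA of estrogen-related receptors in 1 (2.22% beside 4.08%). The median GC content was 59.7% in carrier windows and 56.3% in windows of protein-coding genes, and these matches are descriptions of the letters only.

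Genes that work with the carriers were taken from lists chosen for their roles. The list of carrier import, with the TIM22 complex, its chaperones and the outer membrane receptors, had 12 of 13 tested members higher in the knock-in and 1 lower, with a median of 0.11 and 0 past the adjusted threshold, where 51.1% of all tested genes were higher. The split was 10 higher and 3 lower without wild type replicate 4, without knock-in replicate 2 and without knock-in replicate 3. With probe sets averaged per gene it was 13 higher and 0 lower. At an unadjusted limma p under 0.05 there were 3, all higher, 23.1% of the list beside 11.3% of all tested genes. That count was 1 with the replicate number as a block, without wild type replicate 2 and without knock-in replicate 2. It was 4 with the trended and robust prior, with probe sets averaged per gene and without wild type replicate 3. The groups lay apart in 3 of 13 members, all higher, where 3.96% of all tested genes lay apart and higher. Timm9, a small chaperone of the space between the membranes, was at 7.50, 7.64, 7.45 and 7.60 in wild type and 7.76, 7.87, 7.84 and 7.95 in knock-in arrays, with no overlap (0.30, SE 0.08, limma adjusted p = 0.242). Timm29, a subunit of the TIM22 complex, was at 6.60, 6.41, 6.64 and 6.55 in wild type and 6.64, 6.99, 6.78 and 6.81 in knock-in arrays, parted by a gap of under 0.01 (0.25, SE 0.10, limma adjusted p = 0.371). Tomm22, a receptor of the outer membrane, was at 8.21, 8.11, 8.20 and 8.29 in wild type and 8.42, 8.52, 8.44 and 8.33 in knock-in arrays, also with no overlap (0.23, SE 0.08, limma adjusted p = 0.339). Timm22, the channel itself, was at 0.07 (SE 0.14), and Timm10, the partner of Timm9, at 0.0092 (SE 0.09). Without knock-in replicates 3 and 4 the list had 11 members higher and 2 lower, with 1 higher and 1 lower at an unadjusted limma p under 0.05. Timm9, Timm29 and Tomm22 were then at 0.26, 0.26 and 0.27, with unadjusted limma p of 0.0501, 0.0962 and 0.0412.

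Other mitochondrial transporters had 13 of 17 tested members higher and 4 lower, with a median of 0.11 and 2 higher at an unadjusted limma p under 0.05, 11.8% of the list beside 11.3% of all tested genes. Of all tested genes, 51.1% were higher. The count of 2 was 1 with no filter, with the replicate block, with arrays centred on their median and without wild type replicate 1, 2 or 4. It was 2 higher and 1 lower without wild type replicate 3 and without knock-in replicate 1. The median was 0.045 without knock-in replicate 1, 0.051 without knock-in replicate 2 and 0.18, with 14 higher and 3 lower, without knock-in replicates 3 and 4. The 2 genes were Sfxn5, a sideroflexin, at 0.34 (SE 0.11, limma adjusted p = 0.322), whose groups overlapped, and Abcb6, a porphyrin transporter, at 0.20 (SE 0.09, limma adjusted p = 0.413), whose groups did not. The list of enzymes that use the carriers' substrates also held regulators of mitochondrial genes. It had 12 of 18 tested members higher and 6 lower, where 51.1% of all tested genes were higher, with a median of 0.07. At an unadjusted limma p under 0.05 were 5.56% of them, beside 11.3% of all tested genes. Without wild type replicate 2 the median was 0.031, and without knock-in replicates 3 and 4 the list had 15 higher and 3 lower. In neither list did a member pass the adjusted threshold. Ppargc1a, a coactivator of mitochondrial genes, was the single member at an unadjusted limma p under 0.05, at 8.96, 9.26, 9.04 and 8.86 in wild type and 9.19, 9.48, 9.36 and 9.43 in knock-in arrays (0.33, SE 0.11, limma adjusted p = 0.314), with overlap through wild type replicate 2. Of family members with other symbols, Mtch1 and Mtch2 were tested, at 0.11 and -0.01, and Ucp1 and Ucp3 lay below the dim limit on all 8 arrays. Nnt, the transhydrogenase of the inner membrane, read 8.27, 8.21, 8.28 and 8.38 in wild type and 9.45, 9.37, 9.41 and 9.13 in knock-in arrays (1.05, SE 0.09, limma adjusted p = 0.00951). On leaving out single arrays its difference was 1.02 to 1.12 and its limma adjusted p 0.00765 to 0.0734, above the threshold without wild type replicate 2, knock-in replicate 1 or knock-in replicate 3, and also without knock-in replicates 3 and 4 together (0.0778). This gene is known to differ between C57BL/6 substrains, and whether the groups differ in genetic background beyond the variant was not tested.

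**Figure D4:**
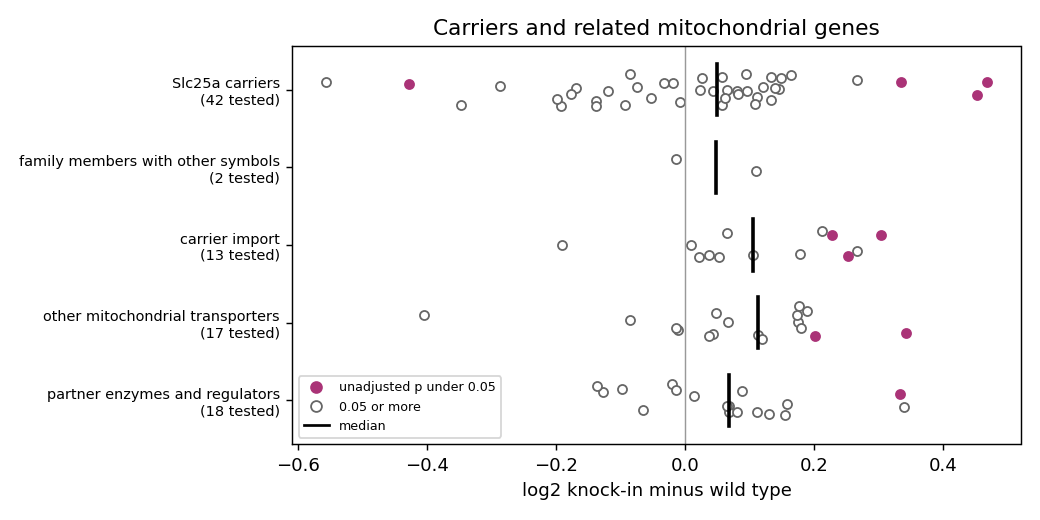
Log2 knock-in minus wild type (horizontal axis) of each tested gene in the Slc25a carriers and 4 related lists (vertical axis, points scattered for visibility), with filled points for an unadjusted p under 0.05 and a black bar for the median. The median was 0.05 for the carriers, 0.11 for carrier import and 0.11 for other mitochondrial transporters.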

How the data were processed

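The authors deposited log2 expression values of 41345 probe sets on 8 arrays, which were hybridised with cDNA from 400 ng of total RNA, per the labels. They were normalized across arrays, and the submitters' processing notes name RMA and limma without versions; array medians were 3.73 to 3.80. RMA makes the distributions of arrays nearly equal and compresses dim and very bright values. Arrays have no read depth, and their number limits the precision. For the array, neither annotation version nor build is given in the sources used here.

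Of the probe sets, 23521 had exactly 1 gene symbol, 1814 several and 16010 were not listed with a gene. Among those with several symbols, 1 named a carrier and was not used. Per gene the probe set with the highest mean was kept. Genes above the 40th percentile on at least 4 of 8 arrays were tested (13449 tested, 8731 dim) with limma 3.58.1 in R 4.3.3, two-sided, genotype as the only term, Benjamini-Hochberg threshold 0.05. The fit was also run on simulated data with independent noise for each gene and array, which cannot speak to deviations shared by the genes of an array. The labels do not say that each array is a separate animal, and p-values therefore reflect only how far these samples spread, which may be technical.

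The rule for named carriers was an unadjusted p under 0.05, groups that do not overlap, Slc25a42 for its place near Tm6sf2, and 8 classic liver carriers; members of other lists were named at an unadjusted p under 0.05. Slc25a28, Slc25a30, Slc25a34, Timm10 and Timm22, given beyond this rule, were added after their values were seen. The carriers, lists and tests were chosen with earlier results of these data known. Alternatives were other filters, scalings, priors and weights, the mean of probe sets, the replicate number as a block, and leaving out each array. Leaving out knock-in replicates 3 and 4 together was chosen after the data were seen. Cell type markers, red cell, pancreas and hepatocyte lists included, came from marker lists of the same kind. One further carrier is not reported here. The remaining 9 marker lists were computed and are summarised among the other observations.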

Additional observations from a re-analysis of the deposited data

Results flagged for a closer look

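In 5 of 100 groups of 4 arrays examined, over the tested carriers and the 8 other genes named with values, 1 array stood far from the other 3, by a gap above Dixon's critical value for 4 samples. Chance gives such a gap in about 1 of 20 groups. All 5 were in carriers, which made up 84 of the 100 groups. The same count was not made over all tested genes. In Slc25a26, knock-in replicate 4 lay at 6.42, above the other 3 at 6.20 to 6.24. In Slc25a33, a pyrimidine nucleotide carrier, the same array lay at 8.37, above 7.94 to 7.96. In Slc25a27, wild type replicate 2 lay at 5.58, above 4.63 to 4.79. In Slc25a36, another pyrimidine nucleotide carrier, knock-in replicate 1 lay at 5.72, below 6.12 to 6.15. In Slc25a37, wild type replicate 2 lay at 7.40, below 7.65 to 7.69.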

How the results depend on the processing

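Over all 17 alternatives, 0 carriers passed the adjusted threshold, with a lowest adjusted limma p of 0.0803 (Slc25a51, trended and robust prior). The count of carriers at an unadjusted p under 0.05, 4 as reported, was 3 to 6, and 4 without knock-in replicates 3 and 4 together or with the replicate block. Slc25a51 had an unadjusted p under 0.05 in 17 of 17 alternatives, Slc25a29 in 15 of 16, Slc25a37 in 14 of 17 and Slc25a22 in 12 of 17. The carriers' median ranged from 0.0093 without knock-in replicates 3 and 4 to 0.06 with the stricter filter. Over all tested genes, 9 passed as reported, and the number was 2 with no filter, 32 with the stricter filter, 73 with the trended and robust prior, 25 with array weights, 24 with probe sets averaged per gene, 2 with the replicate block and 1 without knock-in replicates 3 and 4, and 1 to 12 on leaving out single arrays; the cause was not tested. Of 706 recomputed differences of carriers, 31 turned sign, in 15 carriers. Among these, Slc25a25 was the largest in size as reported, at -0.17. Slc25a53 was at 0.0045 after a further quantile normalization. Without knock-in replicates 3 and 4 together, Slc25a13 was at 0.0024, Slc25a25 at 0.14, Slc25a35 at -0.065, Slc25a36 at -0.063 and Slc25a4 at -0.12. On leaving out single arrays the range was -0.00046 to 0.14 for Slc25a1, -0.18 to 0.042 for Slc25a2, -0.00042 to 0.12 for Slc25a3, -0.11 to 0.14 for Slc25a4, -0.0025 to 0.12 for Slc25a10, -0.061 to 0.020 for Slc25a13, -0.20 to 0.014 for Slc25a14, -0.18 to 0.0078 for Slc25a18, -0.14 to 0.085 for Slc25a24, -0.077 to 0.23 for Slc25a35, -0.033 to 0.15 for Slc25a36, -0.024 to 0.10 for Slc25a38, -0.048 to 0.18 for Slc25a40, -0.081 to 0.079 for Slc25a53 and -0.16 to 0.064 for Tm6sf2. Same-numbered arrays of the 2 groups deviated from their group means with correlations between -0.11 and 0.10, so the replicate numbers were not taken as pairs. With the replicate block, Nnt had an adjusted limma p of 0.13. Scaling moved the median of all genes by under 0.01. Carriers near the dim limit, such as Slc25a29, have compressed values, so the size of their difference is uncertain, and Slc25a29 was not tested under the stricter filter.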

Other observations

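Markers of the other cell types are given as log2 of the summed level, as ranges of 4 arrays, and their part in the carriers' values was not tested. Kupffer cell markers spanned 11.005 to 11.70 across wild type livers and 10.91 to 11.63 across knock-in livers. Sinusoidal endothelium was at 11.57 to 11.67 and 11.67 to 11.82, without overlap by a margin of under 0.01. Its members did not move together: Lyve1 had a difference of 0.73 (SE 0.23, limma adjusted p = 0.295), Pecam1 of 0.14, Clec4g of 0.0069, Stab2 of -0.09 and Kdr of -0.17. Stellate cells were at 11.55 to 12.02 and 11.60 to 11.99, and cholangiocytes at 6.95 to 7.24 and 6.89 to 7.24. The summed ranges also overlapped for T and NK cells, B and plasma cells, neutrophils, adipocytes and skeletal muscle, with Ucp1 and Lep (adipocytes), Myh2 and Myh4 (muscle), S100a8 and Ngp (neutrophils) and Klrb1c (NK cells) below the dim limit on all 8 arrays. Within those lists, Jchain (plasma cells) had a difference of 1.04 (SE 0.25, limma adjusted p = 0.184) and Cidea (adipocytes, also known from fatty liver) of -1.47 (SE 0.49, limma adjusted p = 0.319).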
